A study of Homo sapiens with 6 samples.

Results

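The genes examined here encode the AP-1 transcription factors: the FOS family (FOS, FOSB, FOSL1 and FOSL2), the JUN family (JUN, JUNB and JUND) and 3 related factors, ATF3, BATF3 and MAFF. The members were taken by gene name from the table of normalized expression. All 10 were found among its 57819 genes, and all 10 were among the 19048 genes with enough reads to be tested. They were compared between knockdown and control libraries.

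The cells were IMR90 ER:Ras, human lung fibroblasts that carry a Ras oncogene joined to an estrogen receptor domain. All 6 libraries came from cells given 200 nM of 4-hydroxytamoxifen (4OHT), which switches this Ras on, for 3 days, so the controls carried active Ras as well. Controls were transfected with a scrambled siRNA (siSCR, 3 libraries) and knockdowns with one that targets sin-lncRNA, a long noncoding RNA (3 libraries). The series asked what this RNA does in senescent cells. The labels do not say whether the 3 replicates were separate cultures, so p-values measure the spread between these libraries, which may be technical.

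AP-1 is a pair of proteins of the basic leucine zipper (bZIP) class, held together through their zippers, that binds DNA at short palindromic sites. JUN proteins can pair with each other or with a FOS protein, whereas FOS proteins need a partner; ATF3, BATF3 and small MAF proteins such as MAFF are of the same class, and MAFF has no activation domain of its own. Growth factor and stress signals through the MAP kinases raise the RNA of these genes within minutes to hours. In cells with active Ras and in senescent fibroblasts, AP-1 is known as a regulator of enhancers and of secreted proteases and cytokines.

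Of the 10 AP-1 genes, 4 changed in the knockdown: ATF3 and FOSL2 rose, and JUN and FOSL1 fell (limma, Benjamini-Hochberg adjusted p under 0.05 over all genes tested). ATF3 showed much the largest change of the 10, to 3.31 times its control level. FOSL2 went to 1.55 times, JUN to 0.734 times and FOSL1 to 0.848 times its control level. The count of 4 in 10 is close to the background, since 41.0% of all genes tested were called. For rises the members' count was 2, against 17.5% of all genes, and for falls it was 2, against 23.5%. The control and knockdown libraries did not overlap for 4 of the 10, against 51.1% of all genes. The median log2 fold change was 0.10 for the 10 members and -0.04 for all genes tested.

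**Figure D1:**
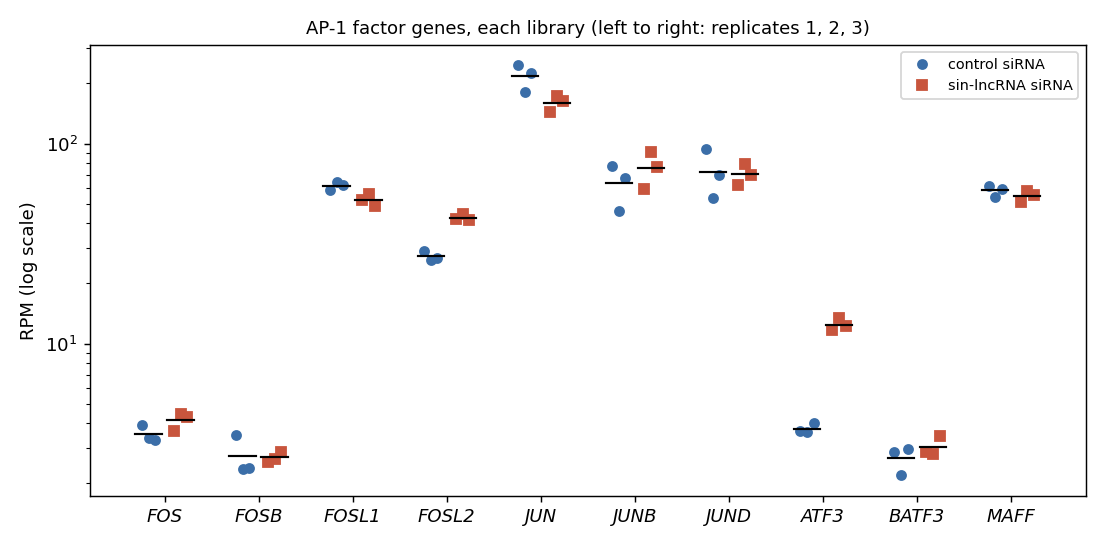
Expression of the 10 AP-1 genes in each library, in RPM (reads scaled to effective library size) on a log axis; circles are control and squares are knockdown libraries, and black lines are group means (n = 3). The groups lie apart for ATF3, FOSL2, JUN and FOSL1, and they overlap for the other 6 genes.

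Levels are given as RPM, reads scaled to the effective size of each library. The libraries held 30271192 to 50913672 reads in genes in controls and 22117324 to 27882280 in knockdowns, so every knockdown library was shallower. The targeted RNA fell from 4.17 ± 0.52 to 0.556 ± 0.076 RPM (SD, n = 3), as a check of the labels. The 8 fibroblast markers summed to 15190 to 16370 RPM in controls and 10690 to 11120 in knockdowns; COL1A1, COL1A2 and PDGFRB were among 5 that fell, and LUM, COL3A1 and THY1 were the 3 that rose. Leukocyte markers summed to at most 0.356 RPM and epithelial markers to at most 0.533 RPM in any library, and KRT5 was at 0 reads in all 6. The endothelial markers analysed summed to 1.70 to 1.90 RPM in controls and 2.29 to 2.71 in knockdowns, most of it VWF. Smooth muscle markers summed to 23.6 to 24.6 RPM in controls and 18.4 to 19.5 in knockdowns. In such bulk RNA, fewer cells of a type and less RNA per cell cannot be told apart. The part of the fibroblast, endothelial and smooth muscle markers in the results for AP-1 genes was not tested.

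ATF3 is a stress-induced factor that, as a pair with itself, represses many promoters and that can also pair with JUN. Its level was 3.64, 3.63 and 3.99 RPM in control replicates 1, 2 and 3, and 11.7, 13.4 and 12.2 RPM in knockdown replicates 1, 2 and 3. The groups lay far apart, and the spread within each was small beside the gap. This gave a log2 fold change of 1.72 (SE 0.09; limma, adjusted p = 3.9e-07), with a 95% interval from 1.52 to 1.93. It was the 58th largest rise among the 19048 genes. Controls held 109 to 201 ATF3 reads each and knockdowns 260 to 343, so the shallower libraries held more of them. The exact permutation test on RPM gave p = 0.1, two-sided, the smallest that 3 libraries against 3 allow.

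The gene (ENSG00000162772.12) spans 212738676 to 212794119 on the plus strand of chromosome 1 in the table, whose build is hg19 per the submitters' processing notes. It shares 246 bp with the small RNA pseudogene RN7SL512P on the other strand, which had at most 0.0119 RPM on average in either group. The nearest tested protein-coding genes on its 2 sides did not pass the test: NENF had a log2 fold change of 0.11 and BATF3 one of 0.19. BATF3 lies 65641 bp from ATF3 and encodes a short factor, known from dendritic cells, that pairs with JUN proteins and lacks an activation domain. BATF3 was at 2.88, 2.20 and 2.98 RPM in controls and 2.87, 2.82 and 3.46 RPM in knockdowns, in the order of the replicates. The groups overlapped, and the log2 fold change had a 95% interval from -0.15 to 0.53 (limma, adjusted p = 0.35). ATF3 and BATF3 were thus at like RPM in controls, and ATF3 alone of the pair passed the test; the difference between their changes was not tested.

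The promoters of the members that changed are shown because AP-1 and ATF proteins are known to bind in the promoters of their own genes. RefSeq promoter windows (GRCh38.p14, from 250 bases before to 50 after each annotated start) were matched for 8 of the 10 members, with 10 windows in all. FOSL1 and BATF3 were not among the matches. Each window was searched on both strands for TGANTCA, the classical AP-1 site, and for TGACNTCA, which takes in the cyclic AMP response element and the variant site of the JUN promoter. The 2 motifs cannot match from the same first base. The first motif occurs in 7.71% and the second in 7.72% of all 35116 promoter windows of this length. Capitals mark the match to TGACNTCA in the 250 bases before 1 of the 2 annotated ATF3 starts (chr1:212565157-212565406, plus strand) and before the JUN start (chr1:58784048-58784297, minus strand), each written 5′ to 3′ along the gene's strand.
ATF3: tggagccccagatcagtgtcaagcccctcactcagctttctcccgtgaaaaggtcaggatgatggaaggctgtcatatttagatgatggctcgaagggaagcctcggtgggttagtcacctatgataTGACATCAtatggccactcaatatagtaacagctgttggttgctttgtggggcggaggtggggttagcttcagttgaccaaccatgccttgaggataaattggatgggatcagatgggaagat
JUN: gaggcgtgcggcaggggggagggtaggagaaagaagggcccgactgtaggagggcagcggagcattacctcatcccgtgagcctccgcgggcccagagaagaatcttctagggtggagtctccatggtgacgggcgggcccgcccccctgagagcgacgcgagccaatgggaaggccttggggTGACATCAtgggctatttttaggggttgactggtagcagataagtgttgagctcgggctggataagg

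Both matches read TGACATCA, at position -123 from the ATF3 start and -67 from the JUN start, counting -1 as the base just before the start and taking the match's first base. ATF3 rose and JUN fell in the knockdown, so the same 8 letters stand in a promoter of a gene that rose and of one that fell. FOSL2 was the only member with TGANTCA in its window, 5 bases past its start. The site with its flanks, and the matches to TGACNTCA in 1 of the 2 windows of MAFF at -54 and JUND at -200, neither of which passed the test for a change, are given for comparison.
FOSL2 (chr2:28392853-28392877, plus strand): ccattgtagTGACTCAtctcgggca
MAFF (chr22:38201931-38201956, plus strand): ccgggtcggTGACGTCAccgcatgac
JUND (chr19:18281806-18281831, minus strand): ccgcccccaTGACGTCAacccacaag

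The windows of FOS, FOSB and JUNB held neither motif, and those of all 3 held a TATAAA box at -33, -30 and -31, which 11.5% of all windows contain on either strand. No member's window held a CArG box, the serum response element's core, found in 1.29% of windows; these letters may still stand outside the window. A match describes letters in a window; RNA counts per gene do not say which of the annotated starts of ATF3 or MAFF was used.

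Among the FOS family, FOSL2 rose, FOSL1 fell, and FOS and FOSB did not pass the test. FOSL2 (Fra-2) lacks the strong activation domain of FOS. It was at 29.1, 26.2 and 26.9 RPM in control replicates 1 to 3 and at 41.9, 44.4 and 41.4 RPM in knockdown replicates 1 to 3. No control library came near any of the knockdowns. The log2 fold change was 0.63 (SE 0.06; limma, adjusted p = 1.4e-05), with a 95% interval from 0.50 to 0.77. FOSL2 (ENSG00000075426.7) spans 28615315 to 28640179 on the plus strand of chromosome 2 in the table. The 2 noncoding genes that overlap it averaged at most 0.167 RPM in either group.

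FOSL1 (Fra-1) is the family member best known as a reader of sustained ERK activity, through its promoter and the stability of its protein. Its level was 58.7, 64.2 and 62.3 RPM in controls and 52.2, 56.2 and 48.5 RPM in knockdowns, in the order of the replicates. The groups did not overlap, but the highest knockdown and the lowest control library differed by little. The log2 fold change was -0.24 (SE 0.06; limma, adjusted p = 0.0099), with a 95% interval from -0.38 to -0.10. Once the trend of each library's values with GC content and transcript length was removed, FOSL1 moved to -0.07 and was no longer called (limma, adjusted p = 0.43; range over the 21 alternatives 0.0052 to 0.43). The call was also lost without the variance trend (0.052). FOSL1 (ENSG00000175592.4) spans 65659520 to 65668044 on the minus strand of chromosome 11, 415 bp from CCDC85B.

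FOS is the classical immediate early gene, transcribed within minutes of a stimulus through SRF and its partners and degraded fast. It was at 3.94, 3.36 and 3.28 RPM in controls and 3.68, 4.44 and 4.31 RPM in knockdowns, on 82 to 165 reads per library. Knockdown replicate 1 lay below control replicate 1, and the other 2 knockdown libraries lay above all controls. The 95% interval of its log2 fold change ran from -0.04 to 0.51 (limma, adjusted p = 0.16). FOSB, a close relative that can also be made as a truncated protein, was at 3.50, 2.36 and 2.38 RPM in controls and 2.56, 2.65 and 2.89 RPM in knockdowns. Control replicate 1 was the highest FOSB library and the other 2 controls were the lowest, and the interval ran from -0.37 to 0.37. The whole 7185 bp of FOSB lie inside ERCC1, on the opposite strand and at 149 RPM in controls. The strand setting of the counting is not given in the sources used here, so FOSB values are uncertain.

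In the JUN family, JUN fell and JUNB and JUND did not pass the test. JUN is the member with the strongest activation domain and the target of the JUN N-terminal kinases. It was at 247, 182 and 225 RPM in control replicates 1 to 3 and at 143, 173 and 163 RPM in knockdown replicates 1 to 3. All knockdown libraries were below all controls, although control replicate 2 and knockdown replicate 2 were close. The log2 fold change was -0.44 (SE 0.10; limma, adjusted p = 0.0052), with a 95% interval from -0.66 to -0.22. Without the variance trend the adjusted p in limma was 0.052. JUN (ENSG00000177606.5) spans 59246465 to 59249785 on the minus strand of chromosome 1 and overlaps no other gene of the table.

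JUNB activates weakly and restrains JUN at some promoters, and JUND is the family member expressed most steadily in resting cells. JUNB was at 77.0, 46.1 and 67.1 RPM in controls and 59.0, 91.1 and 76.0 RPM in knockdowns. JUND was at 94.2, 53.3 and 69.7 RPM in controls and 62.4, 78.6 and 69.8 RPM in knockdowns. In both genes control replicate 1 was the highest and control replicate 2 the lowest control, and knockdown replicate 2 was the highest and replicate 1 the lowest knockdown. The spread within controls, as SD over mean, was 24.9% for JUNB and 28.4% for JUND, against 5.51% for ATF3. The 95% interval of the log2 fold change ran from -0.13 to 0.66 for JUNB (limma, adjusted p = 0.27) and from -0.37 to 0.34 for JUND (0.96). JUNB lies wholly inside HOOK2, on the opposite strand, which averaged 7.04 RPM in controls.

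MAFF can pair with FOS and with the CNC factors such as NFE2L2, and pairs of small MAF proteins alone repress. It was at 61.4, 54.1 and 59.5 RPM in controls and 51.1, 58.2 and 55.6 RPM in knockdowns. The groups overlapped, and the 95% interval of its log2 fold change ran from -0.23 to 0.06 (limma, adjusted p = 0.32). MAFF shares 3809 bp with PLA2G6 on the opposite strand, which averaged 3.39 RPM in controls.

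**Figure D2:**
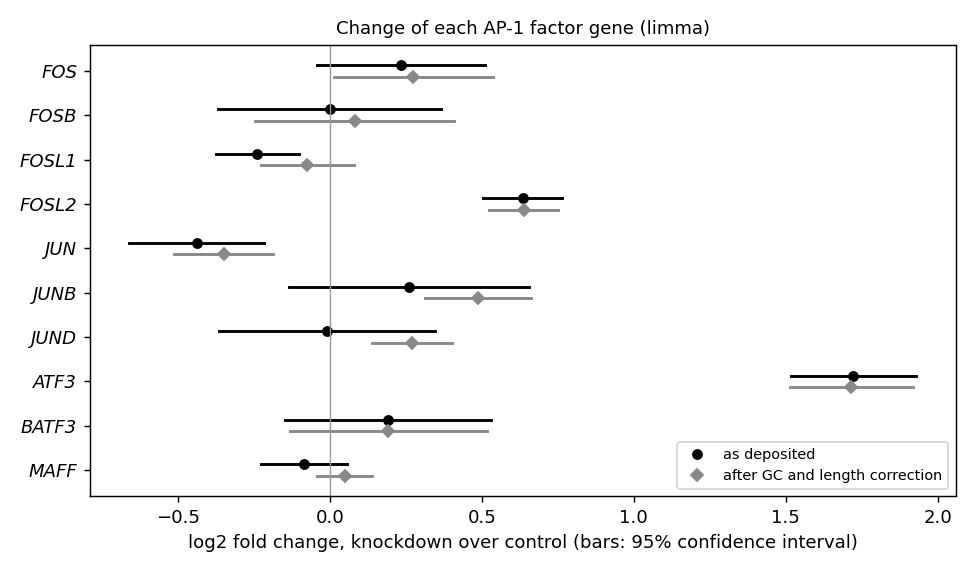
Log2 fold change of each AP-1 gene, knockdown over control, with its 95% confidence interval from limma, for the values as deposited (black circles) and after the GC and length correction (grey diamonds). ATF3, FOSL2 and JUN kept intervals on the same side of 0, FOSL1 moved to -0.07, and JUNB and JUND moved above 0.

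The order of JUNB and JUND across libraries went along with GC content. JUND transcripts have 69.7% GC, JUNB 64.9%, MAFF 61.9% and FOSL1 60%, whereas the median of the genes tested was 47.5%. Over the 2144 tested genes with at least 60% GC, the median deviation from the 6-library mean was 0.23, -0.07 and 0.14 (log2) in control replicates 1, 2 and 3. In knockdown replicates 1, 2 and 3 it was -0.22, 0.03 and -0.06. Within each group the libraries thus ranked for GC-rich genes as they did for JUNB and JUND, and also for JUN and MAFF. FOSL1 did not follow this order: among controls it was lowest in replicate 1 and highest in replicate 2. ATF3 has 46.7% GC and FOSL2 53.3%, and their changes stayed at 1.72 and 0.64 (log2) after the correction. JUN, with 56.7% GC, moved from -0.44 to -0.35 and stayed called (limma, adjusted p = 0.0018).

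After that correction JUNB was at 62.7, 50.1 and 59.8 RPM in controls and 71.9, 89.3 and 80.7 RPM in knockdowns, and the groups no longer overlapped. JUND was then at 68.7, 64.6 and 59.0 RPM in controls and 83.7, 72.4 and 75.7 RPM in knockdowns, also without overlap. Both were called higher in that fit, JUNB at a log2 fold change of 0.49 (limma, adjusted p = 0.00023; range over the alternatives 0.00023 to 0.81) and JUND at 0.27 (adjusted p = 0.0026; range 0.0015 to 0.98). In that fit 5 of the 10 members were called, 4 higher and 1 lower, against 43.9% of all genes. Of the 18546 genes in that fit, 3690 were called higher and 4455 lower. MAFF no longer overlapped either, at 53.96 to 56.65 RPM in controls and 57.34 to 57.63 in knockdowns. It was not called (log2 fold change 0.05; limma, adjusted p = 0.38). The share of all genes without overlap after the correction was not counted. The corrected value of FOSL1 ran from 52.5 to 64.8 RPM in controls and from 50.4 to 58.5 in knockdowns, with overlap. The correction widened the spread of FOSL1 in controls, from an SD of 2.80 to one of 6.17 RPM.

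**Figure D3:**
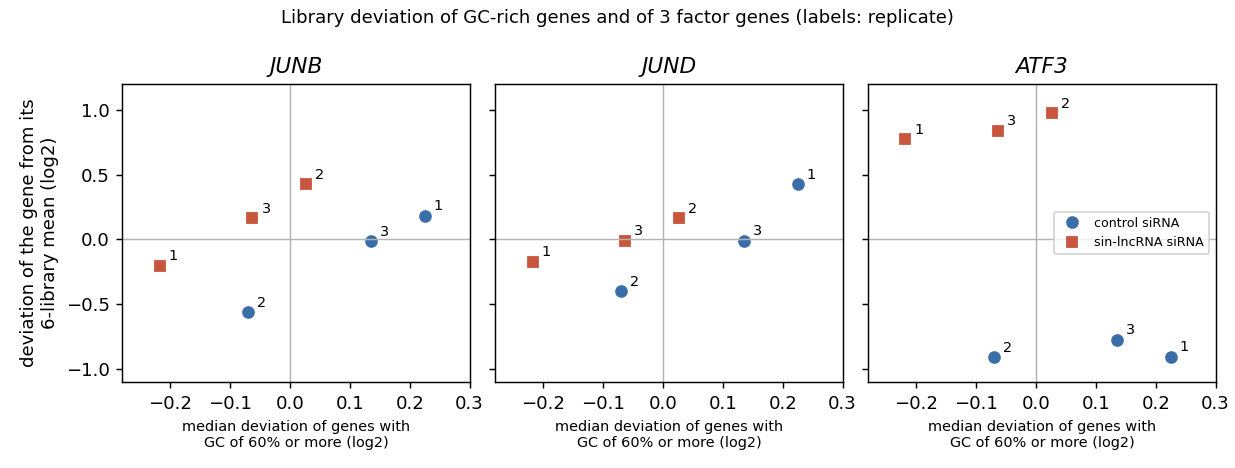
Deviation of JUNB, JUND and ATF3 from their 6-library means (vertical axis, log2) against the median deviation of genes with at least 60% GC in the same library (horizontal axis, log2); circles are control and squares knockdown libraries, numbered by replicate. Within each group JUNB and JUND were highest in the libraries where GC-rich genes were high, and ATF3 separated the groups at any value.

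Levels were compared between genes per kilobase of exon (RPKM, with exon lengths from GENCODE 29). The annotation used for counting is not given, and the JUN length of 3540 bases is longer than the JUN span in the table. Ranks between genes, and the family shares below, depend on these lengths. In controls JUN was the most abundant, at 61.6 ± 9.4 RPKM (SD, n = 3). JUND followed at 38.9 ± 11.1, JUNB at 34.8 ± 8.7 and FOSL1 at 32.7 ± 1.5 RPKM, and the ranges of these 3 overlapped. Within each control library JUND was above JUNB (50.6 against 42.3, 28.6 against 25.3 and 37.4 against 36.9 RPKM). MAFF was at 10.4 ± 0.7 and FOSL2 at 3.83 ± 0.21 RPKM. FOS, BATF3 and ATF3 lay together at 1.09 ± 0.11, 0.990 ± 0.157 and 0.930 ± 0.051 RPKM, and FOSB was last at 0.495 ± 0.117. In knockdowns ATF3 rose from rank 9 to rank 7 at 3.08 ± 0.22 RPKM, above FOS at 1.28 ± 0.13 and still below FOSL2 at 5.94 ± 0.22. The ranges of JUN, at 45.2 ± 4.4 RPKM, and JUNB, at 41.4 ± 8.8 RPKM, overlapped in knockdowns. JUNB was above JUN in knockdown replicate 2 only (50.1 against 49.0 RPKM).

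In each family the shares of 2 genes separated the groups, while the family's sum overlapped. Shares within a family are tied, since a fall of any share raises the sum of the rest. The 2 separations in a family are therefore not separate results. FOSL1 made up 84.0%, 86.9% and 86.4% of the FOS family's summed RPKM in controls and 78.8%, 78.7% and 77.1% in knockdowns. FOSL2 made up 11%, 9.36% and 9.85% in controls and 16.7%, 16.4% and 17.3% in knockdowns. Neither share overlapped between the groups (exact permutation p = 0.1 for each, the smallest possible). The ratio of FOSL2 to FOSL1 thus went from 0.118 ± 0.012 to 0.215 ± 0.009 (SD, n = 3). The family's sum was 38.1 ± 1.1 RPKM in controls and 35.4 ± 2.3 in knockdowns (exact permutation p = 0.2).

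JUN made up 42.9%, 48.8% and 46.1% of the JUN family's summed RPKM in controls and 38.0%, 34.7% and 36.8% in knockdowns. JUNB made up 26.0%, 24.0% and 26.7% in controls and 30.5%, 35.5% and 33.3% in knockdowns. Both shares separated the groups (exact permutation p = 0.1 each), although JUNB by itself did not. A lower level of JUN raises the share of JUNB by arithmetic, so the JUNB share is no separate result for JUNB. The share of JUND was 28.5% ± 2.3 and 30.4% ± 0.9 and overlapped. The family's sum ranged from 105 to 163 RPKM in controls and 106 to 141 in knockdowns (exact permutation p = 0.7). The ratio of JUNB to JUN was 0.607, 0.493 and 0.579 in controls and 0.802, 1.02 and 0.905 in knockdowns, so JUNB stood closer to JUN in every knockdown library. These shares come from values without the GC and length correction, and the part of GC content in them was not tested. ATF3 relative to JUN went from 0.0153 ± 0.0023 to 0.0682 ± 0.0030.

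**Figure D4:**
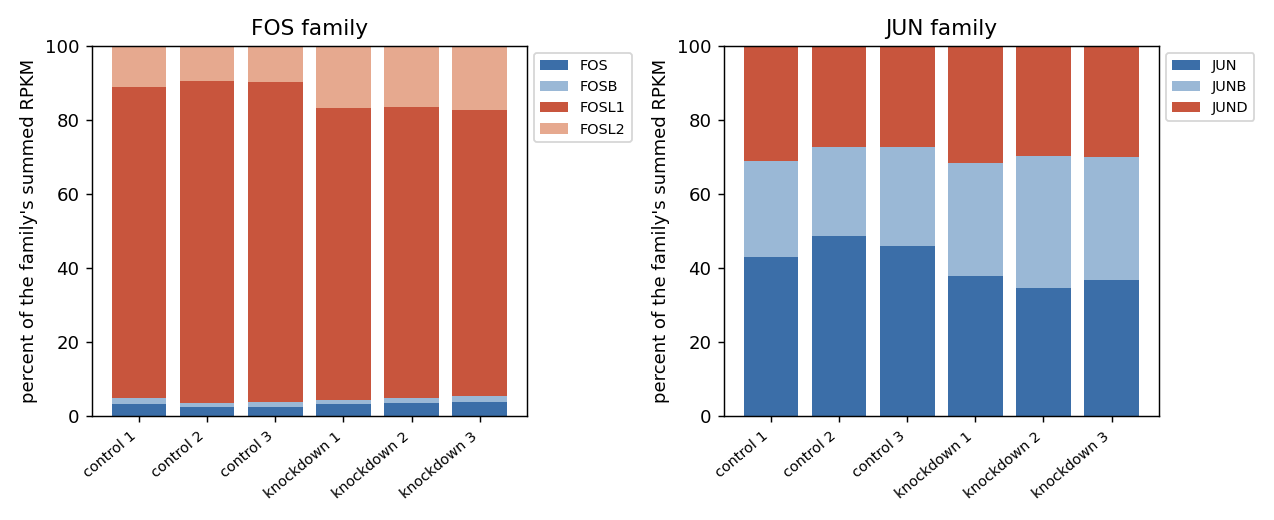
Share of each gene in the summed RPKM of the FOS family (left) and the JUN family (right), in percent, for each library. FOSL2 held 9.36% to 11% of the FOS family in controls and 16.4% to 17.3% in knockdowns, and JUN held 42.9% to 48.8% of the JUN family in controls and 34.7% to 38.0% in knockdowns.

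The other bZIP factors that could pair with these proteins changed in both directions. Of 28 listed, 26 were tested, 10 rose and 8 fell (limma), with a median log2 fold change of 0.04. This made 69.2% called, against 41.0% of all genes. The counts in each direction were the same after the GC and length correction, but not all of the genes were. ATF6 and ATF6B were no longer called (limma, adjusted p = 0.056 and 0.115). CREB3L1 and CREB3L2 were called only in that fit (limma, adjusted p = 0.000145 and 0.0063). The 41.0% set beside this list and the later ones was not matched for expression. In the fit over genes with a mean of at least 50 reads, 48.5% were called. CREB5, a CREB-family factor that can pair with JUN, was at 7.81 ± 0.34 RPM in controls and 23.2 ± 1.4 RPM in knockdowns (SD, n = 3). On the log2 scale it rose by 1.57 (SE 0.07; limma, adjusted p = 1.4e-07). BACH2, a repressor that pairs with small MAF proteins, rose from 4.53 ± 0.14 to 9.63 ± 1.04 RPM, and NFE2L1, a CNC factor that does so too, from 315 ± 11 to 399 ± 4 RPM. The calls downward with the smallest adjusted p were CREB3 (log2 fold change -0.39), ATF5 (-0.50) and CREM (-0.35). JDP2, a repressive partner of JUN and the nearest tested protein-coding gene to FOS on its upper side, went from 13.7 ± 1.3 to 11.6 ± 0.6 RPM (limma, adjusted p = 0.046). BATF, the paralogue of BATF3, was at 0 reads in 5 of 6 libraries and was not tested.

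Of 24 kinases upstream of AP-1, all tested, 5 rose and 10 fell, with a median log2 fold change of -0.09. This made 62.5% called, against 41.0% of all genes. After the GC and length correction 3 rose and 11 fell. MAPK8, which encodes the JUN kinase JNK1, rose from 27.3 ± 0.6 to 42.9 ± 2.3 RPM (log2 fold change 0.65, SE 0.06; limma, adjusted p = 9.6e-06). MAP3K1 (0.48) and MAP2K4 (0.25), which act above it, rose too. Other kinases of the same branch were mixed. MAPK10 (0.56) and MAP3K7 (0.13) rose, but neither was called after the GC and length correction (limma, adjusted p = 0.058 and 0.495). MAP3K5 fell (-0.27), and MAPK9 (0.07), MAP2K7 (-0.12) and MAP3K11 (0.02) were not called. MAP2K3, an activator of p38, fell to 36.6 ± 0.1 RPM from 54.7 ± 1.7 RPM in controls (-0.58), and MAPK3, which encodes ERK1, fell to 63.2 ± 1.6 RPM from 90.2 ± 6.7 (-0.51). RPS6KA3, an ERK-activated kinase, had a log2 fold change of -0.32. JUN RNA was thus lower in libraries in which MAPK8 RNA was higher; kinase activity was not measured.

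Of 12 genes for proteins that restrain AP-1 or its kinases (phosphatases, ubiquitin ligase subunits and menin, which binds JUND), 5 rose and 6 fell, with a median log2 fold change of -0.06. This made 91.7% called, against 41.0% of all genes, with the same counts after the GC and length correction. DUSP4, a nuclear phosphatase of ERK and JNK, rose from 18.9 ± 0.7 to 37.9 ± 3.3 RPM (log2 fold change 1.00, SE 0.07; limma, adjusted p = 1.9e-06). DUSP16, a JNK phosphatase, rose by a log2 fold change of 0.64, and FBXW7, a ubiquitin ligase subunit that marks JUN for degradation, by 0.62. DUSP5, a nuclear ERK phosphatase induced by ERK itself, had a log2 fold change of -0.39, DUSP10 one of -0.49 and ITCH, a ubiquitin ligase for JUN and JUNB, one of -0.35. DUSP4 and DUSP5 thus moved in opposite directions.

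Of SRF and 5 of its partners, 2 rose and 2 fell, which made 66.7% called, against 41.0% of all genes. ELK4 (log2 fold change 0.28) and MRTFB, listed as MKL2 (0.24), rose, and SRF (-0.22) and ELK1 (-0.22) fell (limma, adjusted p from 0.0015 to 0.017). After the GC and length correction SRF (-0.08; limma, adjusted p = 0.24) and MRTFB (0.12; adjusted p = 0.084) were no longer called. MRTFA, another SRF partner, was called higher in that fit (0.26; limma, adjusted p = 0.00049).

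The other immediate early genes did not move as a block. Of 30, 8 rose and 15 fell, with a median log2 fold change of -0.19. This made 76.7% called, against 41.0% of all genes. After the GC and length correction 10 rose and 12 fell. EGR3 was at 62.7 ± 7.1 RPM in controls and 32.8 ± 1.5 RPM in knockdowns, a fall of -0.93 (log2, SE 0.08; limma, adjusted p = 5.6e-06). Its paralogue EGR2 was at 9.61 ± 0.39 and 20.2 ± 0.9 RPM, a rise of 1.07 (log2, SE 0.07; limma, adjusted p = 1.4e-06). GEM (-0.45) and MYC (-0.55) also fell. BTG2, an antiproliferative gene and p53 target, rose by a log2 fold change of 0.92, and CCN2, listed as CTGF and known as a YAP target, by 0.65. SRF and DUSP1 belong to 2 of the lists. EGR1, which SRF also drives, was at 190 ± 13 RPM in controls and 146 ± 5 in knockdowns (log2 fold change -0.38).

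Of 23 textbook AP-1 targets, which include FOSL1 itself, 21 were tested, 3 rose and 10 fell, with a median log2 fold change of -0.04, near that of all genes tested. This made 61.9% called, against 41.0% of all genes, and 4 rose and 9 fell after the GC and length correction. MMP1, a collagenase with a known AP-1 site in its promoter, was at 3145 ± 373 RPM in controls and 3060 ± 237 in knockdowns. Its log2 fold change was -0.04 (SE 0.08). CD44, a hyaluronan receptor, was at 1399 ± 34 RPM in controls and 647 ± 28 RPM in knockdowns (log2 fold change -1.11, SE 0.04; limma, adjusted p = 5.6e-08). TIMP1 (-0.46) fell as well. TGFB1 (0.49), CCL2 (0.36) and CXCL8, listed as IL8 (0.34), were the 3 that rose. HBEGF is in both this list and that of immediate early genes, and it was at 30.2 ± 1.2 and 30.3 ± 1.4 RPM.

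**Figure D5:**
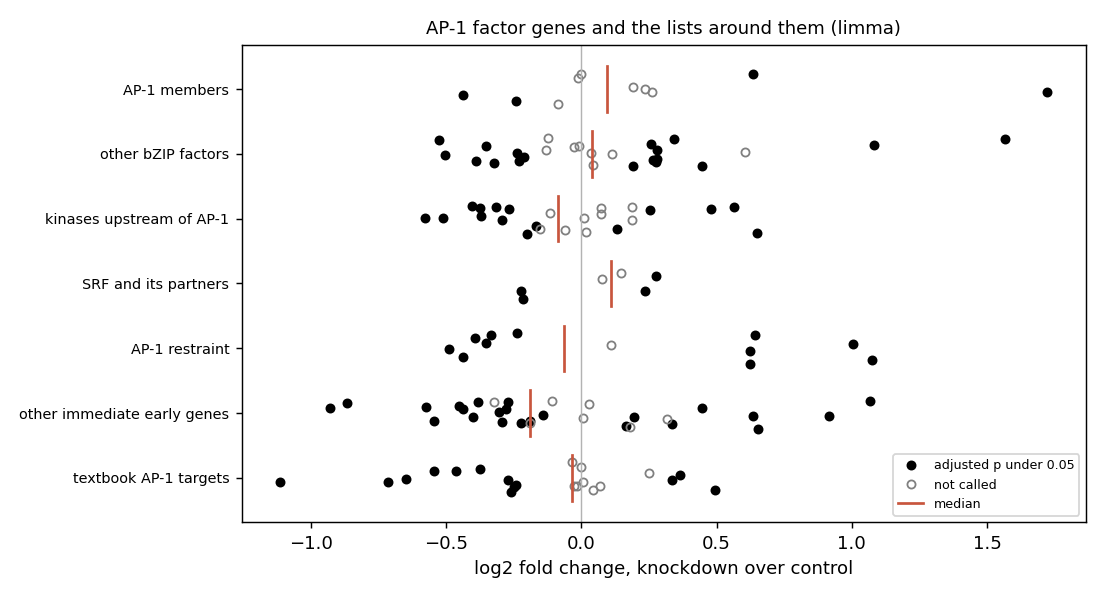
Log2 fold change (knockdown over control, limma) of each tested AP-1 gene and of the genes in 6 lists around AP-1; filled points passed an adjusted p of 0.05, open points did not, and vertical lines are medians. Every list held genes that rose and genes that fell, and medians lay between -0.19 and 0.11.

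The genes whose log2 values ran most like those of 3 members over the 6 libraries were sought among genes with a mean of at least 50 reads, as a description. They were TRIM62 and CRTC1 (Pearson r = 0.99 and 0.98) and the noncoding LA16c-358B7.3 (0.99) for FOS. For FOSL1 they were RANBP17, RP11-12M9.4 and the pseudogene NTAN1P2 (r from 0.995 to 0.998). For JUN they included RAB34 and KIF7 (r = 0.999 and 0.998). These were the 3 closest of 15115 genes for each member, over only 6 points. Among pairs of members, r was highest for ATF3 and FOSL2 (0.99), then for JUN and MAFF (0.88) and for JUNB and JUND (0.83). All these points share the group difference and the GC trend of the libraries.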

How the data were processed

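PolyA RNA was sequenced in 6 libraries as single 50 bp reads. Per the submitters' processing notes, the tools were Bowtie2 and featureCounts and the build hg19; versions, annotation and strand setting are not given in the sources used here. The authors deposited log2 values per gene, scaled to library size. From the values, the scale was inferred to be log2 RPM of effective library size with an offset of 0.5 reads, since undoing this gave whole reads (within 0.01) for 100% of values. RPM here are those reads without the offset. Where no read was counted, the limit is 3 reads (0.0596 to 0.134 RPM by library), for counting error only.

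The deposited log2 values were fitted with limma 3.58.1 (R 4.3.3) with group as the only term and an intensity trend, over genes with a mean of at least 10 reads. P-values were two-sided, with Benjamini-Hochberg adjustment over the 19048 genes. The fit was also run on simulated reads. These carried no GC trend, so that run cannot judge the calls that moved with the GC and length correction. Alternatives changed the offset, filter, scaling, variance model, depth, GC and length (spline trends per library, 97.4% of genes covered), block and library set.

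The members and lists were chosen with earlier results of these data known. Named genes were all 10 members, the 3 called genes with the smallest adjusted p in each direction per list, and the 3 most like FOS, FOSL1 and JUN; others were named after their values were seen. Some genes that this rule names are not reported here. Promoter windows are from RefSeq (GRCh38.p14).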

Additional observations from a re-analysis of the deposited data

How the results depend on the processing

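ATF3 and FOSL2 kept direction and call in all 21 alternative fits, with log2 fold changes from 1.67 to 1.78 and from 0.60 to 0.68. JUN and FOSL1 kept their direction in all 21, JUN its call in 20 and FOSL1 its call in 18. The number of AP-1 genes called was 4 as reported, 2 without the variance trend (ATF3 and FOSL2; JUN and FOSL1 at an adjusted p of 0.052 in limma; 34.7% of all genes were called in that fit), 5 after the GC and length correction and 4 with any library left out. With the replicate number as a block (replicate block), 4 AP-1 genes and 6454 genes in all were called. Libraries of equal number had correlations of deviations from their group means of -0.15, -0.18 and 0.07. These deviations also carry the GC trend of each library, so they cannot decide whether equal numbers mark a shared culture or day. Over all genes, 7805 were called as reported and 5195 at an adjusted p under 0.01, by construction. Leaving out control replicate 3 gave 5803.

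Genes without a call changed sign in some fits. FOSB, at -0.001, was 0.0026 and 0.030 with offsets of 1 and 5 reads, 0.018 with library totals, 0.026 with median-of-ratios factors, 0.040 with quantile normalization, 0.020 with voom, 0.0081 when thinned and 0.081 after the GC and length correction, with or without the block. Leaving out single libraries gave FOSB -0.096 to 0.18. JUND, at -0.01, was 0.0082 with library totals, 0.016 with median-of-ratios factors, 0.014 with quantile normalization and 0.27 after the GC and length correction. Leaving out single libraries gave JUND -0.21 to 0.20. MAFF was 0.049 after that correction. JUNB was 0.49 there and 0.047 to 0.43 when single libraries were dropped. The cause was not tested. FOS, FOSB and BATF3 rest on 57 to 165 reads per library; thinning to the smallest total changed no AP-1 call.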
